A study of Homo sapiens with 7 samples.

Results

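The genes described here are growth receptors and their partners, namely the receptor tyrosine kinases EGFR, ERBB2, ERBB3, MET and FGFR1 to FGFR4, the coreceptor KLB and the ligand FGF19. They were taken by symbol from the deposited table, which held all 10 of them among its 58174 genes. The values come from Huh-7, an established line derived from a human hepatocellular carcinoma, grown in serum-containing medium. Cells had been transfected for 72 h with control siRNA (siC, 3 libraries) or with a pool of siRNAs against the RNA-binding protein IGF2BP1 (siImp1, 4 libraries), and rRNA-depleted total RNA was sequenced. All libraries come from this 1 line and 1 siRNA pool, and the labels do not say whether the libraries of a group are separate cultures, so p-values measure only the spread between these libraries, which may be technical. FPKM, the unit throughout, divides the fragments of a gene by its length and by the scaled size of its library.

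Receptor tyrosine kinases pass extracellular growth signals into the cell. A bound ligand pairs the receptors, which phosphorylate each other and recruit adaptors that feed the RAS-ERK and PI3K-AKT cascades. ERBB2 has no known ligand of its own, and ERBB3 has little kinase activity and signals through its partners, chiefly ERBB2 and EGFR. In liver, MET receives hepatocyte growth factor, and FGFR4 together with the coreceptor beta-Klotho (KLB) receives FGF19, a hormone that restrains bile acid synthesis. FGF19 and FGFR4 are best known in hepatocellular carcinoma as a growth-promoting pair made by the tumor cells themselves.

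Between 12826550 and 33212205 gene-assigned reads stood behind each library, and the 14839 genes averaging 1 FPKM or more were tested. IGF2BP1 itself stood at 19.2% of its siC mean in siImp1 (log2 change -2.37, limma adjusted p = 1.16e-05). SRF, the transcription factor the study followed, had a log2 change of -1.04 (limma adjusted p = 0.000536). All 11 hepatocyte markers were above the limit for testing, with AFP from 2611 to 3450 FPKM and ALB from 1705 to 2042 FPKM, and 0 of 11 passed the threshold in limma. At an unadjusted p under 0.05, 5 of them were lower and 1 higher, against 14.8% lower and 11.0% higher of all genes tested. Their siImp1 means ran from 38.7% of siC for KRT18 to 167.3% for TF. The groups did not overlap for 6 of the 11, against 27.0% of all genes tested. When siC replicate 3 was left out, 4 of the 11 were called lower and 1 higher, against 6.67% and 3.59% of all genes tested in that fit. Of 6 markers of other cell types, PECAM1 (2.58 to 3.29 FPKM) and COL1A2 (0.710 to 1.46 FPKM) passed that limit. The leukocyte markers PTPRC and CD3E stayed below 0.02 FPKM in every library. The third siC library stood apart from the other 2 for several of the receptors, so each result that rests on it is also given without it.

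After depletion of IGF2BP1, ERBB3 fell to 68.9% of its siC level. FGF19 had a mean of 132.6% of siC and did not pass the threshold. ERBB2 had a mean of 73.5% of siC with overlapping libraries. The remaining 7 genes, EGFR, MET, KLB and the 4 FGFR genes, had means between 82.3% and 103.7% of siC. At the threshold used here (limma adjusted p of at most 0.01) 1 of the 10 genes was called lower and 0 were called higher, against 2.28% lower and 1.65% higher of all genes tested. At an unadjusted p under 0.05, 2 were lower (ERBB3 and ERBB2) and 1 was higher (FGF19), beside 14.8% and 11.0% of all genes tested. Without siC replicate 3, 2 were called lower (ERBB3 and ERBB2) and 1 higher (FGF19), against 6.67% and 3.59% of all genes tested in that fit. The libraries of siC and siImp1 did not overlap for ERBB3 and FGF19, that is for 2 of 10 genes, against 27.0% of all genes tested. In RNA from a whole culture, fewer cells with a transcript and less of it per cell cannot be told apart. The median log2 change of the 10 genes was -0.064, beside -0.017 over all genes tested.

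**Figure D1:**
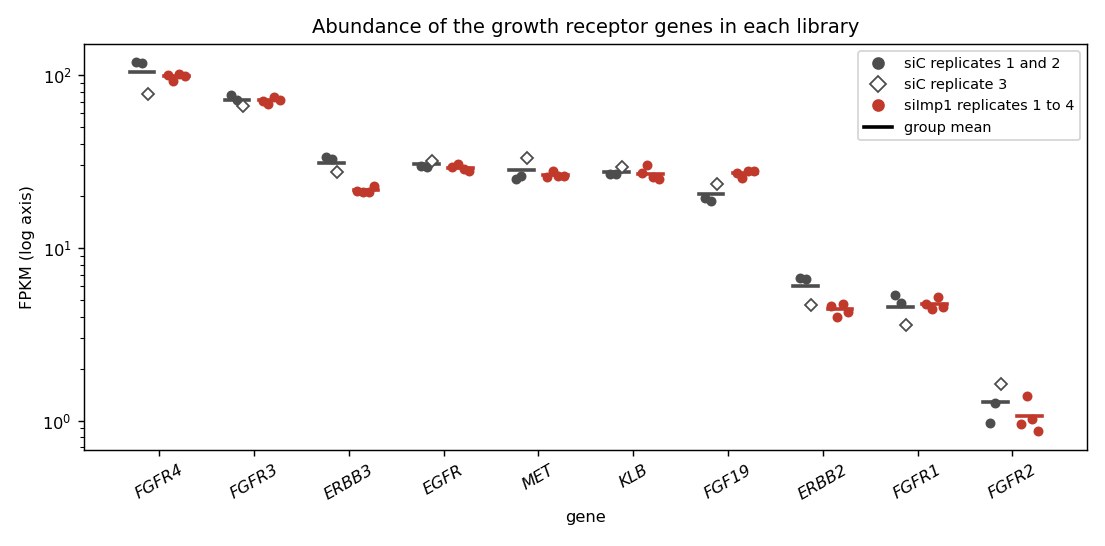
FPKM of each of the 10 genes (x axis, ordered by siC mean) in every library on a log axis, with siC in grey, siImp1 in red and horizontal bars for group means. The 4 siImp1 libraries of ERBB3 (21.0 to 22.7 FPKM) lie below all siC libraries and those of FGF19 (25.5 to 28.0 FPKM) lie above them, while siC replicate 3 (open diamonds) departs from the other siC libraries for FGFR4, MET, ERBB2 and FGFR1.

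FGFR4 was the most abundant of the 10, at 104.5 ± 22.9 FPKM (SD, n = 3) in siC, followed by FGFR3 at 71.3 ± 5.14 FPKM (SD, n = 3). A middle group came next in siC with ERBB3, EGFR, MET and KLB, with means from 27.6 to 31.2 FPKM, whose neighbours overlapped. FGF19 followed at 20.5 ± 2.52 FPKM (SD, n = 3), below KLB in 3 of 3 libraries and without overlap. ERBB2 (5.98 ± 1.15 FPKM, SD, n = 3) and FGFR1 (4.56 ± 0.899 FPKM, SD, n = 3) overlapped, and FGFR2 was last at 1.28 ± 0.335 FPKM (SD, n = 3). In siImp1 the same 2 genes led, but ERBB3 lay below MET in 4 of 4 libraries without overlap, and FGF19 overlapped EGFR and KLB. FGFR1 then ranked above ERBB2 in 4 of 4 libraries, although the ranges overlapped. Levels of different genes rest on the deposited gene lengths, which exceed the longest coding transcripts unequally. For ERBB2 the lengths were 10321 against 4792 bases, and for KLB 6082 against 6002. Ranks of genes at close levels, family shares and ratios between genes could differ with other lengths, which was not tested. Changes of 1 gene between groups use the same length throughout.

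ERBB3, the kinase-poor partner of the family, was the member called lower. ERBB3 (ENSG00000065361, GRCh38 chromosome 12, 56076799 to 56103505, plus strand, 28 exons in the longest coding transcript of GENCODE 44) was at 33.5, 32.6 and 27.4 FPKM in the siC libraries and at 21.2, 21.0, 21.0 and 22.7 FPKM in the siImp1 libraries, in replicate order. Every siImp1 library was lower than every siC library, and the third siC library was the closest to them. Its log2 change was -0.53 (SE 0.084, 95% interval -0.73 to -0.33, limma adjusted p = 0.00970), from 2415 to 9051 reads per library. The call lay just inside the threshold. When libraries were left out in turn, the change ran from -0.62 to -0.47 on the log2 scale, and of these 7 fits ERBB3 was called only in that without siC replicate 3 (limma adjusted p = 0.000717, range over all 18 alternatives 8.81e-05 to 0.158). Leaving out any of the other 6 libraries gave adjusted p from 0.0292 to 0.0465.

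ERBB2, the ligandless partner that ERBB3 pairs with most readily, had a lower mean in siImp1 without passing the threshold. ERBB2 (ENSG00000141736, chromosome 17, 39687914 to 39730426, plus strand, 31 exons) was at 6.68, 6.61 and 4.66 FPKM in siC and at 4.58, 3.98, 4.75 and 4.28 FPKM in siImp1 (replicates in order). Only siC replicate 3 fell within the siImp1 range, and the other siC libraries lay above it. The log2 change was -0.42 (SE 0.14, 95% interval -0.75 to -0.088, limma adjusted p = 0.111). With siC replicate 3 left out it was -0.59 and passed (limma adjusted p = 0.00514, range over all 18 alternatives 0.00112 to 0.381). ERBB2 overlaps MIEN1 and PGAP3 on the other strand, and although the library kit keeps strand, whether reads were assigned by it is not given in the sources used here. MIEN1 had a log2 change of -0.52 (limma adjusted p = 0.0117) and PGAP3 of 0.33 (limma adjusted p = 0.18), and the part of MIEN1 reads in the ERBB2 value was not tested.

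EGFR, the founding member of the family, differed little between the groups. EGFR (ENSG00000146648, chromosome 7, 55019017 to 55211628, plus strand, 28 exons) ranged from 29.5 to 31.9 FPKM in siC and from 27.7 to 30.4 FPKM in siImp1. The log2 change was -0.068 (95% interval -0.21 to 0.074, limma adjusted p = 0.548), so a fall by more than 0.21 on the log2 scale lay outside the interval. EGFR is overlapped by EGFR-AS1 on the other strand, which was at 3.06 to 5.03 FPKM. The fourth receptor, ERBB4, was nearly absent, with at most 0.0720 FPKM in any library. EGFR and ERBB3 together therefore made up most of the ERBB transcripts. The summed FPKM of the 4 ERBB genes was 70.0, 68.8 and 63.9 in siC and 55.0, 55.4, 54.4 and 54.6 in siImp1. EGFR was 42.5%, 42.9% and 49.8% of this sum in siC and between 50.7% and 54.9% in siImp1. ERBB3 contributed 47.9%, 47.4% and 42.8% in siC and from 37.9% to 41.5% in siImp1. The ratio of ERBB3 to EGFR was above 1 in siC replicates 1 and 2 (1.13 and 1.11) and below 1 in siC replicate 3 (0.859) and in all siImp1 libraries (0.691 to 0.819). Where this ratio crosses 1 depends on the deposited lengths, 8658 bases for ERBB3 and 12521 for EGFR. Their longest coding transcripts have 5615 and 9905 bases.

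MET, the hepatocyte growth factor receptor, showed no difference beyond the spread between libraries. MET (ENSG00000105976, chromosome 7, 116672196 to 116798377, plus strand, 21 exons) was at 25.2, 26.0 and 33.1 FPKM in siC and at 25.8, 27.9, 26.1 and 26.1 FPKM in siImp1. All siImp1 libraries lay within the siC range, whose upper end came from replicate 3. The log2 change was -0.075 (95% interval -0.32 to 0.17, limma adjusted p = 0.712), and it was 0.049 without siC replicate 3 (95% interval -0.063 to 0.16).

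Of the 3 genes with a higher mean in siImp1, FGF19, FGFR1 and FGFR3, FGF19 had the largest difference. FGF19 (ENSG00000162344, chromosome 11, 69698238 to 69704022, minus strand, 3 exons) was at 19.5, 18.6 and 23.3 FPKM in siC and at 27.2, 25.5, 27.8 and 28.0 FPKM in siImp1. Every siImp1 library was above every siC library, with siC replicate 3 the nearest. The log2 change was 0.41 (SE 0.090, 95% interval 0.20 to 0.62, limma adjusted p = 0.0297), from 785 to 1454 reads per library, and it did not pass the threshold. Without siC replicate 3 the log2 change was 0.51 and passed (limma adjusted p = 0.00199, range over all 18 alternatives 0.000233 to 0.207).

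FGFR4, the receptor for FGF19, was at 118.4, 116.9 and 78.1 FPKM in siC and at 100.6, 93.0, 101.3 and 98.9 FPKM in siImp1. The siImp1 libraries fell between siC replicate 3 and the other 2 siC libraries, and overlapped with neither. FGFR4 (ENSG00000160867, chromosome 5, 177086905 to 177098144, plus strand, 18 exons) had a log2 change of -0.061 (SE 0.15, 95% interval -0.41 to 0.29, limma adjusted p = 0.849). Without siC replicate 3 the value was -0.26 (95% interval -0.37 to -0.15) and just missed the threshold (limma adjusted p = 0.0105, range over all 18 alternatives 0.0105 to 0.934). Without siC replicate 1 or 2 it was 0.042 or 0.033. The coreceptor KLB (ENSG00000134962, chromosome 4, 39406930 to 39451533, plus strand, 5 exons) ranged from 26.6 to 29.5 FPKM in siC and from 25.2 to 30.03 FPKM in siImp1, with a log2 change of -0.037 (95% interval -0.23 to 0.15, limma adjusted p = 0.826). FGFR4 transcripts outnumbered those of KLB per length by 4.44, 4.38 and 2.65 times in siC and by 3.10 to 3.96 times in siImp1. The ratio of FGF19 to FGFR4 was 0.165, 0.159 and 0.299 in siC and from 0.270 to 0.283 in siImp1, so that siC replicate 3 resembled the depleted libraries in this ratio.

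FGFR3, the second FGF receptor by level, did not differ beyond the spread between libraries. FGFR3 (ENSG00000068078, chromosome 4, 1793293 to 1808872, plus strand, 18 exons) ranged from 66.0 to 76.2 FPKM in siC and from 67.7 to 75.1 FPKM in siImp1, and its siImp1 libraries lay inside the siC range. The log2 change was 0.0051 (95% interval -0.16 to 0.17, limma adjusted p = 0.979). FGFR4 made up 58.9%, 60.1% and 52.3% of the summed FPKM of the 4 FGFR genes in siC and between 55.5% and 56.7% in siImp1.

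RefSeq promoter windows (GRCh38.p14, from 250 bases before to 50 after the start) were held for 7 of the 10 genes, in 13 windows, and not for ERBB3, FGFR1 and FGF19. The 250 bases before the start of FGFR3 and KLB are shown because these genes, whose levels differed by less than the spread between libraries, mark the ends of base composition among the first windows of the 7 genes. The GC content was 86.8% for FGFR3 (chr4:1793043-1793292, plus strand) and 39.2% for KLB (chr4:39406680-39406929, plus strand). Capitals mark GC boxes (GGGCGG on either strand), the motif of SP1-type factors, of which FGFR3 held 8 and KLB held 0.
FGFR3: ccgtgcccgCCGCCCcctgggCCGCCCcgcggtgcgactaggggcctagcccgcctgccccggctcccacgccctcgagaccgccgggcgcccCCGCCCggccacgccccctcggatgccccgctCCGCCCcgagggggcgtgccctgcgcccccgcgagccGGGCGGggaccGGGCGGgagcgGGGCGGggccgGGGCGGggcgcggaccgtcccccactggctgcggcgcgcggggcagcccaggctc
KLB: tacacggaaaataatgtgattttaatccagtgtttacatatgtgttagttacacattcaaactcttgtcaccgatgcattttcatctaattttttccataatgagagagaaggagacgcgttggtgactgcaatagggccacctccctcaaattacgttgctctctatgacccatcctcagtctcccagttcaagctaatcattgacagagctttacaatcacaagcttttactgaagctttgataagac

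Over all windows of the 10 genes, 6 of 13 held a GC box, against 45.0% of the 35116 windows in the RefSeq table. A TATA box (TATAAA on either strand) was in 1 of 13, an inner start of EGFR, against 11.5% of all windows. An E-box (CACGTG, its own reverse complement) was in 2 of 13, the window of MET and an inner one of FGFR4, against 7.26%. The motifs do not overlap each other in the stretches shown, and a match is only a match of letters.

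The 2 remaining FGF receptors were low. FGFR1 (ENSG00000077782, chromosome 8, 38400215 to 38468834, minus strand, 18 exons), a receptor of mesenchymal tissues foremost, was at 5.30, 4.81 and 3.56 FPKM in siC and from 4.43 to 5.20 FPKM in siImp1. Its siImp1 libraries lay within the siC range (log2 change 0.068, 95% interval -0.26 to 0.40, limma adjusted p = 0.815). FGFR2 (ENSG00000066468, chromosome 10, 121478332 to 121598458, minus strand, 17 exons) ranged from 0.961 to 1.63 FPKM in siC and from 0.864 to 1.39 FPKM in siImp1, from 85 to 305 reads per library. At this depth its interval was the widest of the 10 (log2 change -0.25, 95% interval -0.84 to 0.34, limma adjusted p = 0.597), which reaches a fall by 0.84 on the log2 scale.

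**Figure D2:**
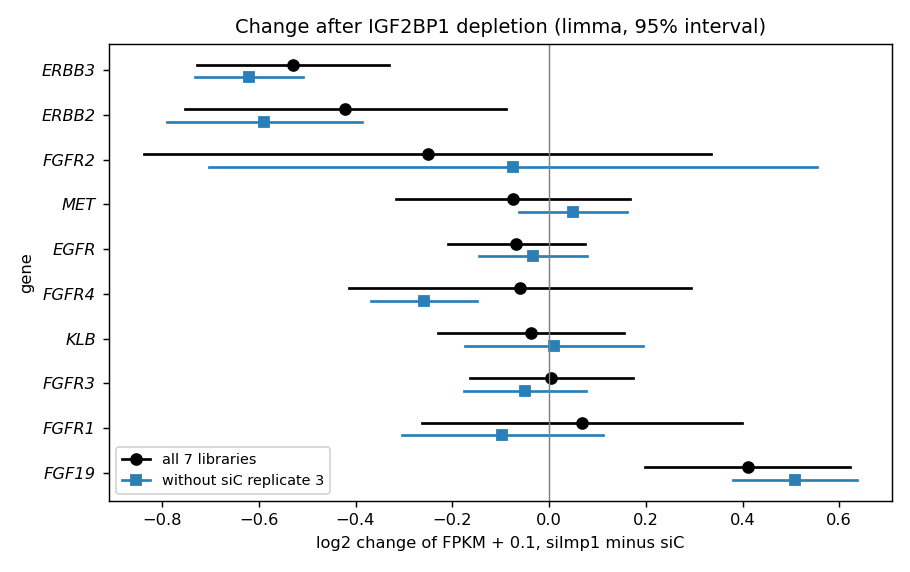
Log2 change of each gene (y axis) between siImp1 and siC with its 95% interval from limma (x axis), over all 7 libraries (black circles) and without siC replicate 3 (blue squares). ERBB3 (-0.53 and -0.62) and ERBB2 (-0.42 and -0.59) lie below 0, FGF19 (0.41 and 0.51) lies above 0, and FGFR4 moves from -0.061 to -0.26 when siC replicate 3 is left out.

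The departure of siC replicate 3 followed the base composition of the 10 transcripts. MET, KLB, FGFR2 and EGFR, whose longest coding transcripts have a GC content from 43.5% to 47.8%, were higher in siC replicate 3 than in the mean of the other siC libraries, by 0.10 to 0.53 on the log2 scale. ERBB3, FGFR1, ERBB2, FGFR3 and FGFR4, from 51.3% to 63.4% GC, were lower there, with distances from -0.59 for FGFR4 to -0.16 for FGFR3. FGF19 was the exception, with 55.9% GC and a distance of 0.29. Pearson's r between GC content and this distance was -0.742 over the 10 genes (Spearman's rho -0.794), which share a library and are not independent. Over 10625 coding genes tested, Spearman's rho was -0.566. The distance of siImp1 replicate 2 from the other siImp1 libraries had r = -0.734 with GC content over the 10 genes. In the other 5 libraries r was positive, from 0.442 in siImp1 replicate 4 to 0.775 in siImp1 replicate 3. Over the 10625 genes, rho was -0.493 for siImp1 replicate 2. For those 5 libraries it ran from 0.0171 in siImp1 replicate 1 to 0.585 in siC replicate 1. In siImp1 replicate 1 the relation over the 10 genes (r = 0.537) was thus nearly absent over the 10625. Each distance is taken from the mean of the rest of the group, so the distances of libraries of 1 group are tied to each other. After a trend with GC content had been removed from each library, an alternative added after seeing the data, ERBB3 (log2 change -0.49, limma adjusted p = 0.000538) and ERBB2 (log2 change -0.39, limma adjusted p = 0.00474) were called lower. FGF19 was not called in that fit (log2 change 0.44, limma adjusted p = 0.0468), and FGFR4 had a log2 change of -0.027 (limma adjusted p = 0.818). What set siC replicate 3 apart was not tested.

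**Figure D3:**
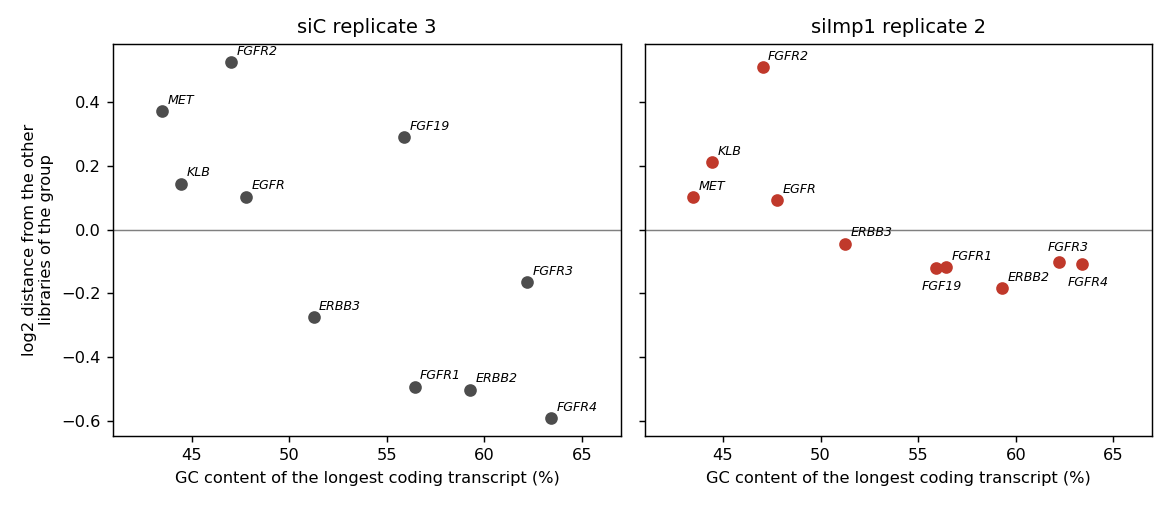
Distance of siC replicate 3 (left) and of siImp1 replicate 2 (right) from the other libraries of their group on the log2 scale (y axis) against the GC content of the longest coding transcript in percent (x axis), 1 point per gene. In siC replicate 3, FGFR4 (63.4% GC) lies at -0.59 and MET (43.5% GC) at 0.37, while FGF19 lies at 0.29 apart from the other GC-rich genes.

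Genes most alike in pattern over the 7 libraries were sought for EGFR and FGFR4 among 10671 other protein-coding genes. For EGFR they were TIMM9, a chaperone of mitochondrial import, and DUS4L, a tRNA-modifying enzyme (Pearson's r = 0.985 and 0.981 of log2 values). For FGFR4 they were AURKAIP1, a mitochondrial ribosome component, and LIG1, the replicative DNA ligase (r = 0.997 for both). LIG1 was at 14.9, 14.7 and 7.29 FPKM in siC and from 10.1 to 11.7 FPKM in siImp1, and TIMM9 was at 7.70, 8.20 and 12.1 FPKM in siC and from 5.80 to 9.46 FPKM in siImp1. In both, as in FGFR4 and EGFR, siC replicate 3 lay outside the other 6 libraries.

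The other genes of the pathway were then considered in 9 lists with 95 genes, of which 69 were tested. Among these, 2 were called lower (DUSP4 and CRKL) and 3 higher (HPN, SOCS3 and STAT3), against 2.28% and 1.65% of all genes tested. An unadjusted p under 0.05 was reached by 21 with a lower and 6 with a higher mean, beside 14.8% and 11.0% of all genes tested. Their median log2 change was -0.051, beside -0.017 over all genes tested, and the groups did not overlap for 23 of 69, beside 27.0% of all genes tested.

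Ligands of the ERBB receptors were scarce. Of 12 genes in this list 3 were tested and 0 were called. AREG, encoding amphiregulin, had the highest mean, with 1.64, 2.24 and 2.87 FPKM in the siC libraries and 1.65 to 2.01 FPKM in siImp1 (limma adjusted p = 0.504). In the list of the MET ligand and its regulators, 4 of 8 genes were tested and 1 was called higher. This was HPN, encoding hepsin, a membrane protease of hepatocytes that can activate the HGF precursor. HPN was at 3.60, 3.79 and 2.69 FPKM in siC and at 8.21, 8.36, 8.46 and 8.32 FPKM in siImp1, with every siImp1 library above every siC library (log2 change 1.30, limma adjusted p = 0.00125). It was called in 7 of 7 fits that left out 1 library. HGF itself was at or below 0.276 FPKM in all libraries and was not tested.

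Among FGF ligands and coreceptors, 4 of 10 genes were tested and 0 were called. The heparan sulfate proteoglycan GPC3, an oncofetal marker of liver cancer, led this list with 369.4, 372.3 and 279.3 FPKM in the siC libraries and 398.2 to 421.4 FPKM in siImp1 (log2 change 0.28, limma adjusted p = 0.185). In the bile acid arm, 3 of 6 genes were tested and 0 were called. NR1H4, the bile acid receptor FXR that induces FGF19, ranged from 44.9 to 54.9 FPKM in siC and from 48.7 to 49.6 FPKM in siImp1 (log2 change 0.0067, 95% interval -0.18 to 0.19). The other tested genes of this list had lower means in siImp1 without passing the threshold, and the list's median log2 change was -0.35. NR0B2, the corepressor SHP that FXR induces, ranged from 4.02 to 4.92 FPKM in siC and from 1.89 to 2.67 FPKM in siImp1, without overlap, from 29 to 182 reads per library (log2 change -0.82, limma adjusted p = 0.0147). SLC51B, a subunit of the bile acid exporter, had a log2 change of -0.35 (limma adjusted p = 0.175). Its call when siC replicate 3 was left out made 1 lower of 3, against 6.67% of all genes tested in that fit. The other subunit, SLC51A, went the other way, at 0.371 to 0.501 FPKM in siC and 0.792 to 1.06 FPKM in siImp1, without overlap. With 27 to 105 reads per library, SLC51A averaged below 1 FPKM and was not tested. CYP7A1, the bile acid synthesis enzyme that FGF19 restrains, was listed at 0 in 6 of 7 libraries with 3 reads in the other, and CYP8B1 was listed at 0 in all 7. Their response could not be measured at this depth.

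Downstream of the receptors, 12 of 13 genes in a list of adaptors and other signalling proteins were tested. Of these 1 was called lower (CRKL) and 1 higher (STAT3), against 2.28% and 1.65% of all genes tested. CRKL, an adaptor of the CRK family, was at 66.9, 68.6 and 66.9 FPKM in siC and from 49.6 to 51.2 FPKM in siImp1 (log2 change -0.42, limma adjusted p = 0.00342). STAT3, a transcription factor that cytokine and growth factor receptors activate, ranged from 9.62 to 10.5 FPKM in siC and from 14.2 to 15.0 FPKM in siImp1 (log2 change 0.52, limma adjusted p = 0.00263). Of the 7 fits with a library left out, CRKL and STAT3 were each called in 1, that without siC replicate 3. All 13 genes of the RAS-to-ERK list were tested and 0 were called by limma. At an unadjusted p under 0.05, 5 of them were lower and 0 higher, where all genes tested gave 14.8% and 11.0%. RPS6KA3, a kinase that ERK activates, was the most abundant of them (log2 change -0.66, limma adjusted p = 0.0213). This list had 4 genes called lower once siC replicate 3 was left out, against 6.67% of all genes tested in that fit. Of the PI3K and AKT list 9 of 11 genes were tested and 0 were called, and its most abundant gene IRS1 had a log2 change of 0.034 (limma adjusted p = 0.805).

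Of 14 negative regulators 13 were tested, and SOCS3, an inhibitor of cytokine receptors that STAT3 induces, was called higher. SOCS3 was at 1.139, 1.20 and 0.930 FPKM in siC and at 2.85, 2.09, 2.29 and 2.56 FPKM in siImp1 (log2 change 1.10, limma adjusted p = 0.00649), from 35 to 141 reads per library. Here too the call was kept in 1 of 7 fits with a library left out, that without siC replicate 3. All 8 ERK-induced genes were tested, of which 1 was called lower, and 7 had a lower mean in siImp1. DUSP4, a phosphatase of ERK and related kinases, was at 5.45, 5.92 and 6.22 FPKM in siC and at 3.10, 3.22, 3.15 and 3.01 FPKM in siImp1 (log2 change -0.89, limma adjusted p = 0.000963), and it was called in 7 of 7 fits that left out 1 library. The groups did not overlap for 7 of these 8 genes, beside 27.0% of all genes tested, and the median log2 change of the list was -0.26. At an unadjusted p under 0.05, 5 of the 8 were lower and 1 was higher, PHLDA1, where all genes tested gave 14.8% and 11.0%.

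**Figure D4:**
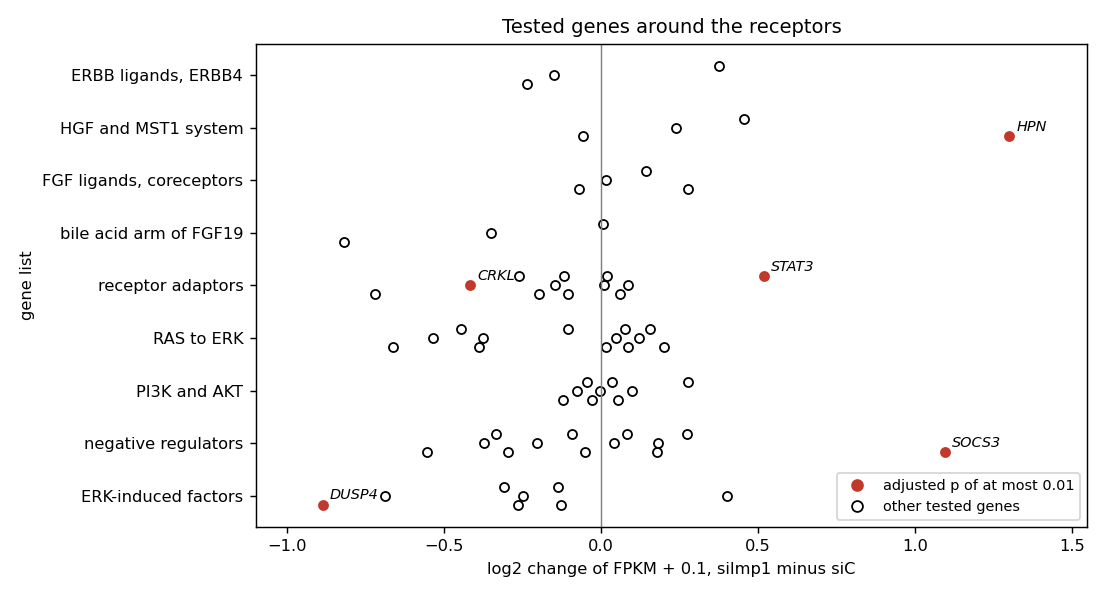
Log2 change between siImp1 and siC (x axis) of the 69 tested genes in 9 lists around the receptors (y axis), 1 point per gene, with the 5 genes called at an adjusted p of at most 0.01 in red. HPN (1.30) and SOCS3 (1.10) lie farthest to the right, DUSP4 (-0.89) lies farthest to the left, and 7 of the 8 ERK-induced genes lie below 0.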

How the data were processed

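The authors clipped reads with Cutadapt (version 1.14), aligned them with HISAT2 (2.1.0) to GRCh38, counted reads per Ensembl gene with featureCounts (1.5.3) and used edgeR (3.18.1) with TMM normalization. The deposited table gives FPKM per gene and library from the authors, with a gene length, and the authors' fold changes and p-values, which were not used. No other column of sample values was present (0 columns). The product of FPKM and length came out as whole reads (within 0.02) for 100% of nonzero values, from which reads and depth were taken. The library size behind FPKM was the reads on genes times a factor, from 0.964 to 0.984 in siC and from 1.01 to 1.03 in siImp1. These factors did not overlap between the groups, and they enter every log2 change.

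Groups were taken from the sample titles. Log2(FPKM + 0.1) of genes averaging 1 FPKM or more was tested in limma-trend (limma 3.58.1 in R 4.3.3), two-sided, with Benjamini-Hochberg adjustment over all 14839 genes and a threshold of 0.01, the FDR threshold of the study. Log2 changes are siImp1 minus siC, and the pseudocount shrinks those of low genes. The fit was tested on simulated data, which held no trend with GC content and no library set apart. Alternatives were a pseudocount of 1, no filter, a filter at 5 FPKM, centring on the median, quantile normalization, protein-coding genes only, array weights, voom on the recovered reads, a threshold of 0.05, a block for replicate numbers and leaving out each library. Removal of a trend with GC content was added after seeing the data.

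The genes named are the 10 members, IGF2BP1, SRF, each list gene called, otherwise the most abundant gene of a list, and the 2 protein-coding genes most alike to EGFR and to FGFR4. Others, such as markers, ERBB4, EGFR-AS1, MIEN1, PGAP3, HGF, NR0B2, SLC51A, SLC51B, CYP7A1, CYP8B1 and PHLDA1, were named after their values were seen. Members and lists were chosen with earlier results of these data known. Positions and GC content come from GENCODE 44 on GRCh38.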

Additional observations from a re-analysis of the deposited data

Results flagged for a closer look

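Among the 4 siImp1 libraries, the 10 genes were examined for a library far from the others, and 2 showed one where chance, at 1 group in 20, gives about 0.5. For ERBB3, replicate 4 (22.7 FPKM) lay above replicates 1 to 3 (21.2, 21.0 and 21.0 FPKM), and the gap to the nearest made up 0.851 of the range. For MET, replicate 2 (27.9 FPKM) lay above the others (25.8 to 26.1 FPKM), with a gap of 0.880 of the range. Both exceed Dixon's critical value at the 95% level. Without siImp1 replicate 4 the log2 change of ERBB3 was -0.56 (limma adjusted p = 0.0292, range over all 18 alternatives 8.81e-05 to 0.158), and without siImp1 replicate 2 it was -0.52. With 3 libraries, siC is too small for this comparison.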

How the results depend on the processing

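The direction of EGFR, ERBB2, ERBB3, FGFR2 and FGF19 was kept under each alternative that was run, and that of IGF2BP1 and SRF as well. ERBB3 was called under 9 of 18 alternatives, ERBB2 under 3 and FGF19 under 3, of which 1 was the threshold of 0.05. EGFR, MET, KLB and FGFR1 to FGFR4 were called under 0, and FGFR1 and FGFR2 could not be tested at a mean of at least 5 FPKM.

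The members called lower numbered 0 without a filter (206 of 34319 over all genes), with median centring and with the replicate block. They numbered 2 with array weights and after removal of the GC trend. Across the fits without 1 library they ran from 0 to 2. Members called higher numbered 1 with array weights and at a threshold of 0.05, and from 0 to 1 without 1 library. Pathway genes called lower were 1 at a mean of at least 5 FPKM and with quantile normalization, 5 with protein-coding genes only, 16 with array weights, 4 with voom, 9 after removal of the GC trend and 12 at a threshold of 0.05, and from 1 to 9 without 1 library. Pathway genes called higher were 7 with array weights and 5 after removal of the GC trend, and from 1 to 5 without 1 library. In each of these ranges the upper end is the fit without siC replicate 3. Calls over all genes tested moved too, from 338 lower and 245 higher of 14839 in the main fit. They were 1722 and 1022 with array weights, 489 and 353 with voom, and 260 and 279 with quantile normalization. Median centring gave 287 and 261, and the threshold of 0.05 gave 1010 and 703. Protein-coding genes gave 511 and 360 of 10672, GC trend removal 716 and 729 of 10625. The 5 FPKM filter gave 299 and 169 of 7952. Fits without 1 library gave 53 to 990 lower and 66 to 533 higher. The threshold of 0.05 is looser by construction, and for the other settings the cause was not tested.

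Directions near 0 reversed in some fits. MET had a log2 change of 0.021 with array weights, and from -0.15 to 0.049 without 1 library, the upper end without siC replicate 3. FGFR1 was at -0.056 with array weights and from -0.096 (without siC replicate 3) to 0.18 without 1 library. FGFR3 was at -0.027 with array weights, and from -0.050 to 0.055 without 1 library, below 0 without siC replicate 3 or siImp1 replicate 3 (-0.019). FGFR4 was at 0.081 with quantile normalization, and from -0.26 to 0.042 without 1 library, above 0 without siC replicate 1 or 2 (0.033). KLB was at 0.017 with quantile normalization, from -0.091 to 0.011 without 1 library and 0.0034 after removal of the GC trend. Median centring moved the median of all genes tested from -0.017 to 0.012.

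With the replicate block, IGF2BP1 (log2 change -2.36, limma adjusted p = 0.0909) and SRF (-1.02, adjusted p = 0.0954) lost their calls, which each kept under the other 17 alternatives (adjusted p at most 0.000474 and 0.00554), and 0 pathway genes were called lower and 0 higher, as were 0 genes over the whole table (limma), where an unadjusted p under 0.05 was reached by 1315 lower and 1074 higher genes. ERBB3 was at -0.56 (adjusted p = 0.158). The block leaves 2 residual degrees of freedom. The values gave no sign that the numbers pair the libraries. Deviations from the group means of same-numbered libraries correlated at -0.026, -0.118 and -0.111 for replicates 1 to 3. No siC library correlated best with the siImp1 library of its own number. Whether libraries were handled in pairs cannot be told from these correlations.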

Other observations

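The following 8 genes of the pathway, named after their values were seen, were called by limma in neither direction over all 7 libraries and passed the threshold in the fit without siC replicate 3. In the RAS-to-ERK list these were the kinases RPS6KA3 (log2 change -0.52, adjusted p = 0.00704), RPS6KA1 (-0.59, adjusted p = 0.00577) and MAP2K2 (-0.51, adjusted p = 0.00744) and the GTPase NRAS (-0.31, adjusted p = 0.00344), all lower in siImp1. Of the ERK-induced genes, the transcription factor ETV4 (-0.89, adjusted p = 0.00314) and the phosphatase DUSP5 (-0.31, adjusted p = 0.00342) were lower and PHLDA1 (0.54, adjusted p = 0.00182) was higher. SLC51B, a subunit of the bile acid exporter, was lower (-0.52, adjusted p = 0.00598), while the other subunit, SLC51A, had a higher mean in siImp1 and was not tested. Each of the 8 was called in 1 of 7 fits that left a library out, so that these calls rest on the absence of siC replicate 3. In the fit without that library, 6.67% of all genes tested were called lower and 3.59% higher.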
